A study of Mus musculus with 2 samples.

Results

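The cells described here are fibroblasts in which 3 transcripts were found together: Wt1, Has2 and Rtl4. The cells were chosen by detection of transcripts: a cell was taken when it held at least 1 unique molecular identifier (UMI, a counted RNA molecule) of each of Pdgfra, Dcn, Wt1, Has2 and Rtl4. Cells that also held 3 or more of the 5 genes Ctla2a, Krtdap, Bmp3, Neto1 and Eya4 were left out. The rule found 275 of 14300 cells, 93 of 7308 in the adult library and 182 of 6992 in the aged library. They are called triple-positive cells below, and the other cells with Pdgfra and Dcn detected are called other fibroblasts (5508 adult and 5478 aged, which include the Ctla2a-marked cells that the rule leaves out).

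The mice were FVB/N and of the Prox1-GFP genotype in both groups, so every cell comes from an animal with a fluorescent reporter of Prox1, a factor of lymphatic endothelium. Adult mice were 12 weeks old and aged mice 93 weeks old. Afferent lymphatics of the submandibular nodes from 6 mice of each age were pooled, sorted by flow cytometry (the gate is not given in the sources used here) and captured as 1 droplet library per age. The labels give no sex and tie no cell to a mouse. With 1 pooled library per age there is no test here: every interval covers counting error only, and age cannot be told apart from the library.

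The 2 tables share cells. The aged table also held 6977 of the adult barcodes (95.5%), which were counted once, as adult. All 93 adult triple-positive cells had such a copy, with a median of 8689 UMIs in place of 17153, and 49 of the copies (52.7%) still passed the rule. With the shared cells counted in the aged library too, 2.30% of its cells with Pdgfra and Dcn passed the rule, in place of 3.22%.

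Wt1 encodes a zinc-finger transcription factor known from the mesothelium, the developing kidney and gonad, and some mesenchymal cells. Has2 encodes the plasma-membrane enzyme that spins out long hyaluronan, the matrix sugar that PTX3 and TNFAIP6 help to crosslink. Rtl4 is an X-linked gene derived from the gag region of an ancient Sushi-class retrotransposon and kept as a host gene.

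Detection of the 3 genes chose the cells, so their levels are a description. Levels are CPM, the UMIs of a gene summed over the cells of a group and given per 1000000 UMIs of that group. Wt1 stood at 246 CPM in adult and 249 in aged triple-positive cells, against 11.7 and 18.2 in other fibroblasts. Rtl4 stood at 703 and 627 CPM against 45.7 and 60.9. Has2 stood at 656 and 600.4 CPM against 253 and 266, so it was the least selective of the 3, and 50.3% of adult and 53.3% of aged other fibroblasts held a UMI of it. In endothelial cells (Pecam1 and Cdh5 detected, Pdgfra not), which should lack these genes, at most 1.31% held a UMI of Has2, 0.258% of Rtl4 and 0.129% of Wt1, at median depths of 7376 and 6194 UMIs against 17153 and 15090.5 in triple-positive cells.

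Many cells sat close to the limit of the rule. A single UMI of Wt1 carried 31 of the 93 adult and 49 of the 182 aged cells, whereas 53 and 102 cells held 2 or more UMIs of all 3 genes. On the limit set by the 5 Ctla2a-group genes, 35 adult and 34 aged cells held 2 of them, just inside, and 16 and 8 cells with all 3 genes held 3 of them, just outside. Wt1 stood at 254 CPM in the adult cells just inside and 166 just outside, and at 262 and 372 in the aged cells. Another 347 adult and 703 aged cells held exactly 2 of the 3 genes.

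The label also names Plagl1, an imprinted zinc-finger gene, and Cxcl2, a neutrophil chemokine, which the rule did not use. Plagl1 stood at 233 CPM in adult triple-positive cells against 64.7 in other fibroblasts, and at 243 against 128 in the aged library. Cxcl2 stood at 525 against 223 CPM and 849 against 433. Both were higher in each library, by log2 ratios of 1.83 and 0.92 for Plagl1 and 1.23 and 0.97 for Cxcl2 (1 CPM was added to each level before every log2 ratio). Neither marks all the cells: 49.5% and 61.0% held a UMI of Plagl1 and 37.6% and 42.9% one of Cxcl2, with 1 cell holding 15.9% and 11.0% of the Cxcl2 UMIs. Nor are they particular to these cells. Cells with Wt1 and Has2 but no Rtl4 held Plagl1 in 36.1% and 48.2% and Cxcl2 in 39.8% and 46.6%. For cells with Has2 and Rtl4 but no Wt1 the shares were 43.6% and 56.6% for Plagl1 and 29.2% and 37.0% for Cxcl2.

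Triple-positive cells made up 1.66% of adult cells with Pdgfra and Dcn detected (95% Clopper-Pearson interval 1.34 to 2.03%) and 3.22% of aged ones (2.77 to 3.71%). Because the rule needs 5 detected transcripts, depth enters the share. After thinning every cell to 8000 UMIs the shares were 1.24% (0.937 to 1.61%) and 2.71% (2.26 to 3.23%), so the aged share was the larger in both readings. The thinning left out 658 adult and 749 aged other fibroblasts and 3 aged triple-positive cells as too shallow.

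The gene with the highest ratio over other fibroblasts was Trpc5, which encodes a calcium-permeable cation channel, and the next was Wt1os, a noncoding transcript of the strand opposite Wt1. Each lies upstream of a gene of the rule on the opposite strand, so that the pair start head to head: Wt1os beside Wt1, and Trpc5 beside Rtl4. This order was looked up after the values were seen, in the GENCODE vM21 annotation of GRCm38, and is used for gene order alone. The RefSeq promoter windows (GRCm38.p6, 300 bases around the annotated start, minus strand) of these neighbours are shown because the results turn on them. Capitals mark GGGCGG, a GC box.
Wt1os, chr2:105126461-105126760: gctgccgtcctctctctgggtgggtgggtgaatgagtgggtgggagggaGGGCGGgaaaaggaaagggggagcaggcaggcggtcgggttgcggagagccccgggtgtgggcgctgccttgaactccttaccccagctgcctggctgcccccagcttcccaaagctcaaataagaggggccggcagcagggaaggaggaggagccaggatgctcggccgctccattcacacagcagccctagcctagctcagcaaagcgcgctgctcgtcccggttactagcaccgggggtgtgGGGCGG
Trpc5, chrX:144688131-144688430: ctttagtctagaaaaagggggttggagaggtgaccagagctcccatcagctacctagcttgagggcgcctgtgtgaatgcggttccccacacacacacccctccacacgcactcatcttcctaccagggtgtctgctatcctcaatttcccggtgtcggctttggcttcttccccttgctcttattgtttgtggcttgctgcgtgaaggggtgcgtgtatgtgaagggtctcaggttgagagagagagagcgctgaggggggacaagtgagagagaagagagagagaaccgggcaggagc

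The Wt1os window is 66.7% G or C and holds 2 GGGCGG matches, searched on both strands, a motif that 35.7% of the 32851 windows of the table hold. The Trpc5 window is 55.7% G or C, near the median of 52.7%, and holds none. Neither window held GCGNGGGNG (12.3% of windows) or TATAAA (13.6%), and none of these letter matches says whether a factor binds there.

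Trpc5 stood at 127 CPM in adult triple-positive cells against 7.11 in other fibroblasts, and at 117 against 6.14 in the aged library. These are log2 ratios of 3.98 (95% interval of the ratio itself, without the added CPM, 3.92 to 4.39) and 4.05 (4.04 to 4.46). Wt1os stood at 54.4 against 3.1 CPM and at 70.6 against 4.73, log2 ratios of 3.75 (3.77 to 4.49) and 3.64 (3.64 to 4.15). The counts lie in many cells: 47 adult and 68 aged cells held Trpc5, and 41 and 84 held Wt1os. None of 775 adult and 458 aged endothelial cells held either, which allows shares of up to 0.387% and 0.655%. A single aged cell held 21.9% of the Trpc5 UMIs. The other nearby genes with enough UMIs to be measured were closer to the other fibroblasts. Rcn1 near Wt1 stood at log2 ratios of -0.17 and -0.04, and Amot near Rtl4 at 0.52 and 0.59. Has2os, which overlaps Has2 on the other strand, stood at 0.69 and 0.83. The rest held 10 UMIs or fewer per library and were not measured, among them Lhfpl1, between Rtl4 and Amot, with 0. Their ratios went both ways: Trpc5os near Rtl4 at 1.44 and 0.37 on 3 and 1 UMIs, Slc22a22 near Has2 at -0.63 and -0.21 on 4 and 8. Whether the counting used strand is not given in the sources used here, so reads of overlapping transcripts on opposite strands may not be told apart.

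Sorting the fibroblasts by which of the 3 genes they held showed each neighbour mainly in cells that held its own partner, as the plot of cells with a UMI by detected genes shows. The genes plotted were picked after their values were seen. Trpc5 was found in 33.3% (29.3 to 37.6%) of adult and 25.9% (22.9 to 29.0%) of aged fibroblasts with Rtl4, and in 0.491% and 0.988% of those without. Wt1os was found in 31.3% (26.7 to 36.1%) and 32.5% (28.9 to 36.4%) of fibroblasts with Wt1, and in 0.652% and 1.05% of those without. Cells with Wt1 and Has2 but no Rtl4 held Trpc5 in 2.26% and 2.77% of cases, and cells with Has2 and Rtl4 but no Wt1 held Wt1os in 2.56% and 2.94%. Triple-positive cells were thus high in both neighbours, Trpc5 in 50.5% and 37.4% and Wt1os in 44.1% and 46.2% of cells.

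**Figure D1:**
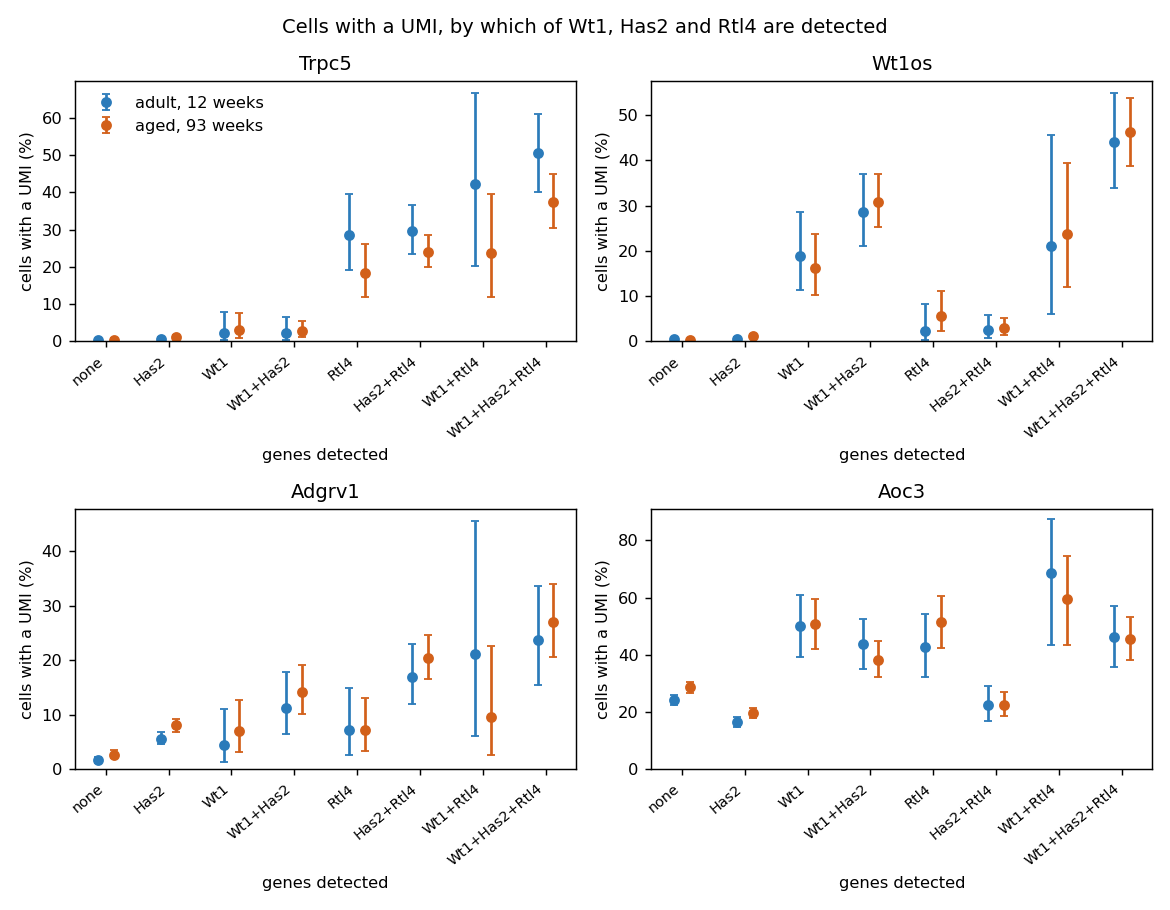
Share of fibroblasts (%, y axis) with a UMI of Trpc5, Wt1os, Adgrv1 or Aoc3, by which of Wt1, Has2 and Rtl4 were detected (x axis), in the adult (blue) and aged (orange) library; points are shares and bars 95% Clopper-Pearson intervals. Trpc5 is low wherever Rtl4 is absent and Wt1os wherever Wt1 is absent, while Adgrv1 is highest with all 3 genes (23.7% and 26.9%) and Aoc3 where Wt1 and Rtl4 are present without Has2.

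The 3 genes of the rule also went together. Rtl4 was found in 34.9% of adult fibroblasts with Wt1 and 7.18% of those without, and in 36.8% and 11.4% in the aged library. Among cells of 10000 UMIs or more the shares were 35.1% and 8.70%, and 39.0% and 13.9%, so cells with Wt1 held Rtl4 more often in deep cells too. Has2 was found in 70.0% of adult fibroblasts with Wt1 and 49.8% without, and in 72.4% and 52.6% in the aged library.

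Adgrv1, a very large adhesion receptor, came after them in rank: 42.4 against 6.21 CPM in the adult library and 65.4 against 11.2 in the aged one (log2 2.59 and 2.45). It was found in 1.62% and 2.68% of cells with none of the 3 genes and in 23.7% and 26.9% of triple-positive cells. Aoc3, the amine oxidase also known as vascular adhesion protein, behaved otherwise. It was found in 50% and 50.8% of cells with Wt1 alone and in 16.5% and 19.6% of cells with Has2 alone, with triple-positive cells between them at 46.2% and 45.6%. Cells with Rtl4 alone held Aoc3 in 42.9% and 51.6%, and cells with none of the 3 genes in 24.2% and 28.6%.

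Most triple-positive cells with a sex call were male. A cell was called female when it held Xist and no UMI of the Y-linked genes Ddx3y, Uty, Kdm5d and Eif2s3y, and male when it held a Y-linked UMI and no Xist. Of the adult triple-positive cells with a call, 63 of 85 were male (74.1%, 63.5 to 83.0%), against 44.0% of other fibroblasts. Of the aged ones, 137 of 167 were male (82.0%, 75.4 to 87.5%), against 58.0%. The high male share was not particular to them. Of cells with a call, those with Has2 and Rtl4 but no Wt1 were 80.3% (adult) and 85.3% (aged) male. Those with Wt1 and Rtl4 but no Has2 were 66.7% and 85.4% male, and those with Wt1 and Has2 but no Rtl4 41.6% and 51.1%. Triple-positive cells were 0.796% of female and 2.84% of male fibroblasts in the adult library and 1.45% and 4.66% in the aged library. Since the number of mice of each sex is not in the labels and mice cannot be told apart within a pool, a difference between the sexes and one between single mice cannot be told apart.

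The sexes also differed in single genes, of which Rtl4 and Trpc5 are X-linked (these genes were picked after their values were seen). Among fibroblasts of 10000 UMIs or more, Rtl4 was found in 4.60% of female and 18.0% of male cells in the adult library and in 7.42% and 23.9% in the aged one. Trpc5 was found in 1.86% and 7.25%, and in 2.07% and 8.15%. Wt1 was closer, at 8.09% and 9.17% in the adult library, where the intervals overlap, and 11.3% and 14.6% in the aged one, where they do not. Has2 was found in 50.7% and 68.8%, and in 60.4% and 66.4%, also apart. Aoc3 ran the other way, at 26.3% of female against 16.2% of male adult cells and 33.9% against 23.5% of aged ones. Within either sex alone the neighbours stayed high in triple-positive cells: the smaller of the 2 libraries' log2 ratios was 3.78 for Trpc5 and 3.25 for Wt1os in female cells and 3.53 and 3.97 in male cells.

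**Figure D2:**
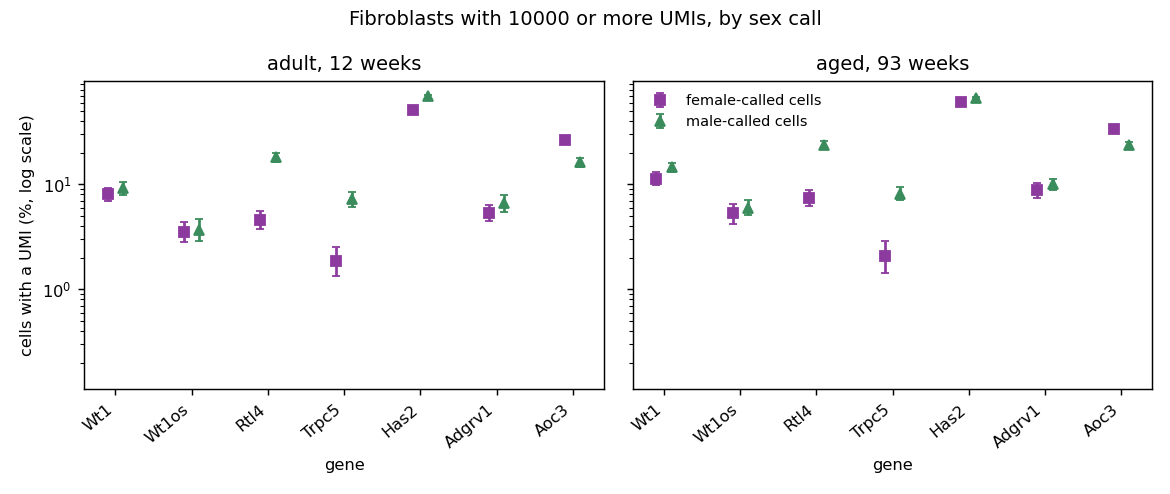
Share of fibroblasts with 10000 or more UMIs (%, log scale) that held a UMI of each gene, for female-called (squares) and male-called (triangles) cells of the adult and aged library; bars are 95% Clopper-Pearson intervals. Rtl4 and Trpc5 lie apart between the sexes in both libraries (18.0% of male and 4.60% of female adult cells for Rtl4), whereas Wt1os and Adgrv1 intervals overlap.

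Across the transcriptome, 9488 genes were measured (a UMI in 10% or more of the cells of a group in at least 1 library, and 50 or more UMIs). Compared with other fibroblasts, 41 genes (0.432%) were past 2-fold on the high side in both libraries and 161 (1.7%) on the low side. At 1.5-fold, 229 (2.41%) were higher and 385 (4.06%) lower. More genes thus passed on the low side than on the high side. Other fibroblasts are a mix of cells (all fibroblasts fell into 20 clusters, described below), and the part of this mix in the counts was not tested. Triple-positive cells were the deeper, and the part of this in the counts was not tested: medians were 17153 and 15090.5 UMIs in triple-positive cells and 13398.5 and 12449.5 in other fibroblasts, with mitochondrial shares of 2.22% and 2.17% against 2.25% and 2.03%.

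Among the higher genes after the first 3, Nptx2, a secreted neuronal pentraxin, stood at 46.6 against 11.4 CPM in the adult library and 68.8 against 22.3 in the aged one. Tesc, a calcium-binding protein, stood at 32.9 against 4.25 and 30.1 against 10.5. Tlr2, an innate immune receptor, stood at 52.0 against 20.6 and 98.6 against 36.2, and Acsl4, which activates arachidonic acid, at 157 against 54.9 and 174 against 70.4. These genes were higher in both libraries but were not found in every cell: 38.7% and 55.5% of triple-positive cells held Tlr2 and 24.7% and 35.7% Nptx2. Several unnamed transcripts ranked as high, among them Gm56730 (171 against 45.3 and 525 against 163 CPM) and Gm20186 (657 against 234 and 1402 against 567). Fhit, a nucleotide hydrolase, stood at 387 against 141 and 347 against 139 CPM.

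The rest of the 24 highest were Cecr2, Mpped2, Gm20400, Trmt61b, Adamts19, Stxbp5l, Or5m3b, Gm56555, Gm55330, Gm48719, Ankrd33b, Sim2 and Rnd1, with the smaller log2 ratio between 1.15 and 1.72, and Hp. Hp, which encodes haptoglobin, rested on few cells: 10 adult and 15 aged cells held it, and 1 cell held 52.3% of the adult UMIs. No female triple-positive cell held it. One cell also held 50% of the Cecr2 UMIs in each library and 46.9% of those of Trmt61b in the aged one.

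Among genes at low levels Myoc, which encodes myocilin, had the lowest ratio, with no UMI in the 93 adult cells against 212 CPM in other fibroblasts, at least 118-fold lower when 3 counts are put in place of 0, and 1.37 against 122 CPM in the aged library. Bgn, the proteoglycan biglycan, stood at 54.4 against 469.9 and 41.4 against 495 CPM (log2 -3.09 and -3.55). Gas6, a ligand of the TAM receptor kinases, stood at 38.2 against 409 and 31.9 against 335 CPM. Bgn was found in fewer cells the more of the 3 genes a cell held, whichever they were. Gas6 followed the same order but for aged cells with Wt1 and Rtl4 (42.9%), above those with Has2 alone (40.9%). Bgn was found in 81.4% of adult cells with none, 54.1% with Has2 alone, 35.4% with Has2 and Rtl4 and 21.5% with all 3, and in the aged library in 84.7%, 48.4%, 20.3% and 17.0%.

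The other genes of the 12 lowest were Ccn5, Fmo2, Mfap4, Col15a1, Itgbl1, Masp1, Emx2, Clec11a and Cxcl14. Cxcl14, a chemokine, stood at 15.5 against 291 and 39.7 against 244 CPM, and Col15a1, a basement-membrane-zone collagen, at 2.99 against 51.1 and 6.85 against 62.4. Emx2, a homeobox factor, had no UMI in either library and was at least 6.89-fold lower in the adult and 5.88-fold lower in the aged one. Mfap4 was held by 1 adult and 3 aged cells, against 75.0 and 111 CPM in other fibroblasts.

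**Figure D3:**
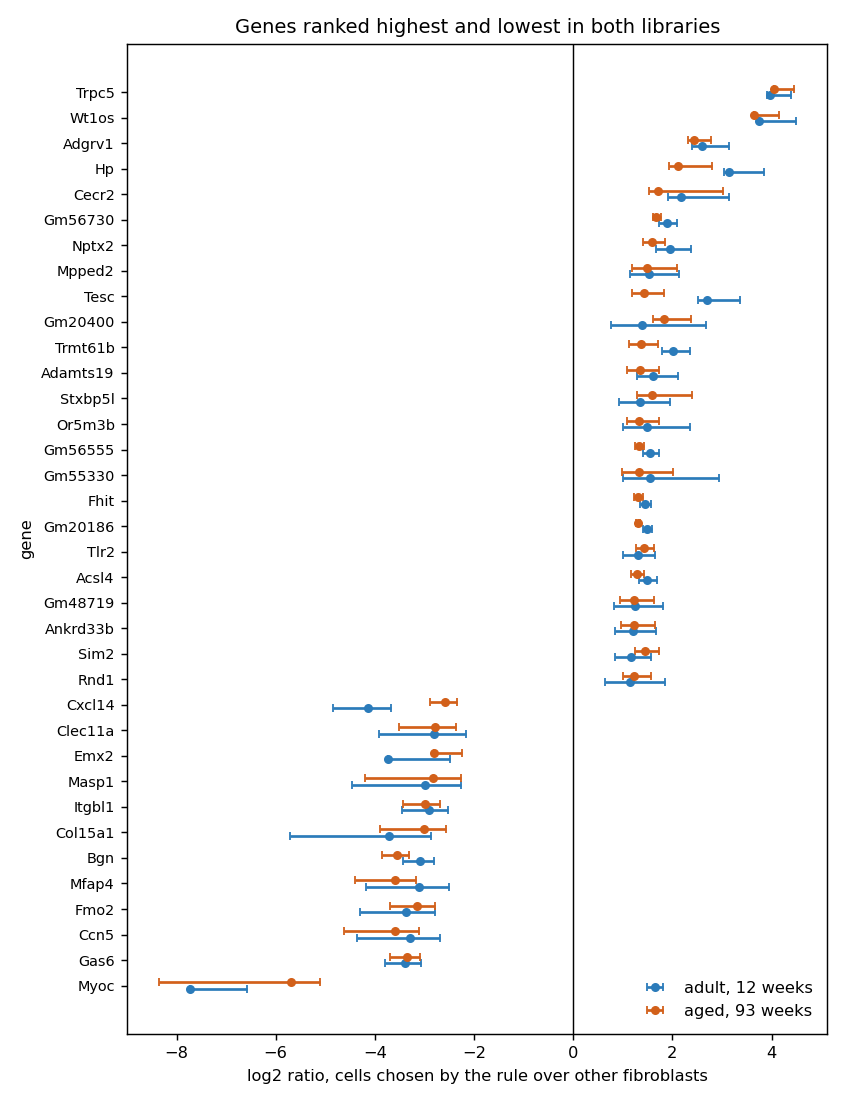
Log2 ratio of CPM (1 CPM added) in triple-positive cells over other fibroblasts (x axis) for the 24 highest and 12 lowest genes (y axis) in the adult (blue) and aged (orange) library; bars are 95% counting intervals of the ratio without the added CPM, so a point can lie at or beyond the end of its bar, and an open-ended interval is not drawn on that side. Trpc5 and Wt1os stand apart at ratios above 3.6 in both libraries, and Myoc lies lowest.

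Since many other fibroblasts lacked Has2, the same ratios were taken against other fibroblasts with Has2 detected, an alternative added after the values were seen. The smaller ratios were then 3.66 for Trpc5, 3.26 for Wt1os, 1.96 for Adgrv1, -5.35 for Myoc and -2.14 for Bgn. Genes higher by 2-fold in both libraries numbered 17 in place of 41, and genes lower 71 in place of 161. Of the 36 genes named above 25 stayed past 2-fold, among them Nptx2 (1.02) and Tesc (1.11), and Tlr2 (0.96) and Fhit (0.96) did not. Outside the clusters of which 90% or more came from 1 library (described below), another alternative added after the values were seen, 24 of the 36 stayed past 2-fold. The 12 that did not were Gm55330 (0.07), Rnd1 (0.10), Mpped2 (0.34), Nptx2 (0.35), Acsl4 (0.52), Trmt61b (0.55), Or5m3b (0.58), Tesc (0.58), Cecr2 (0.80), Adamts19 (0.87), Gm20186 (0.90) and Cxcl14 (-0.48). Trpc5 (3.32) and Wt1os (3.57) stayed high.

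Lists of genes are described by members 1.5-fold or more higher or lower in both libraries, to be read against the 2.41% and 4.06% above. Of 14 measured genes of hyaluronan synthesis and binding, 5 were higher (Tnfaip6, Ptx3, Tlr2, Uap1 and Gfpt2) and 1 was lower (Layn, a hyaluronan receptor). Gfpt2 and Uap1, enzymes of the hexosamine route that supplies the sugar precursor, stood at 3367 against 1902 and 1300.1 against 765 CPM in adult cells. Tnfaip6 stood at 6240.1 against 3717 CPM in adult and 6983 against 4564 in aged cells. The list's median log2 ratio was 0.74 and 0.48, against -0.05 and -0.02 for all genes measured. Has2 itself chose the cells. Against other fibroblasts with Has2, 1 of the 14 genes (Tlr2) was 1.5-fold higher in both libraries and none lower, where 1.11% and 2.06% of all genes were. In cells of 10000 or more UMIs 2 of the 14 were higher (Tlr2 and Gfpt2), and in male cells 2 (Ptx3 and Tlr2). The shares of all genes under these settings are not given here, so these counts cannot be read against them.

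Matrix lists lay on the low side. Of 18 measured collagens, 4 were lower and none higher: Col1a1 stood at 445 against 818 CPM in adult and 963 against 2014 in aged cells, Col3a1 at 996 against 1963 and 2319.8 against 4771, with Col1a2 and Col15a1 beside them. Of 18 elastic fibre genes 6 were lower (Eln, Fbln1, Fbln2, Mfap2, Mfap4 and Ltbp4) and 1 was higher, Ltbp1, a carrier of latent TGF-beta (658 against 348 and 609 against 383 CPM). Of 8 small leucine-rich proteoglycans 3 were lower (Bgn, Lum and Podn), and of 13 matricellular genes 6 (Thbs2, Sparcl1, Tgfbi, Ccn5, Spon1 and Smoc2). Of 25 matrix proteases and inhibitors 4 were lower, among them Mmp3 and Timp1, and 1 was higher, Plat, tissue plasminogen activator (583 against 327 and 595 against 326 CPM). Against other fibroblasts with Has2 the low side held 3 of 17 collagens (Col1a1, Col3a1 and Col15a1), 2 of 17 elastic fibre genes (Eln and Fbln2), 2 of 8 proteoglycans (Bgn and Podn), 4 of 13 matricellular genes and 3 of 25 proteases and inhibitors. Ltbp1 and Plat did not pass there.

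Signalling lists also held more genes on the low side. Of 20 Wnt genes 7 were lower (Wnt2, Wnt9a, Sfrp4, Dkk3, Fzd1, Fzd2 and Apcdd1) and none higher. Of 26 BMP and TGF-beta genes 6 were lower, with Gdf10 at 59.2 against 316 and 85.3 against 329 CPM, and none higher. Of 25 positional transcription factors outside the Hox clusters 8 were lower, with Tbx15 at 8.36 against 57.4 and 9.25 against 39.7 CPM. Complement genes were lower in 5 of 13, with C7 at 26.9 against 272 and 46.6 against 216 CPM. Among 19 angiogenic factors Vegfd, a ligand of the lymphatic receptor VEGFR3, was higher (237 against 119 and 173 against 89.4 CPM), as was Fgf2 (215 against 125 and 173 against 106), and Angptl1 was lower. Against other fibroblasts with Has2, Vegfd was again higher and Fgf2 was not. The low side there held 4 of 20 Wnt genes, 8 of 26 BMP and TGF-beta genes, 6 of 26 positional factors and 4 of 13 complement genes.

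Lists built around the genes of the rule and the label were checked too. Of 16 measured genes of a WT1 network list (proposed targets, partners and retinoid or mesothelial factors), none was higher and 5 were lower: Spry1, Nr2f2, Rara, Cdh11 and Il11ra1. None of these 5 passed against other fibroblasts with Has2, where 1 of 15 was lower (Bmp7). None of 3 measured Sushi-class relatives of Rtl4 passed 1.5-fold in both libraries, and of 15 imprinted genes other than Plagl1, itself higher as given above, 1 was higher (Slc38a4) and 2 were lower (Peg3 and Mest). Immediate early genes, which also follow tissue dissociation, were lower in 9 of 27, with Jun at 1272 against 2066 and 803 against 1379 CPM. Against other fibroblasts with Has2, 3 of 27 were lower (Egr3, Ier2 and Hspa1b), and with 2 of the 3 genes required 1 of 27 was (Egr2). The share of all genes lower with 2 of the 3 genes required is not given here. Of 27 NF-kB genes, chemokines and cytokines other than Cxcl2, itself higher as given above, 1 was higher, Nfkb1 (2708 against 1323 and 3122 against 2054 CPM), and 6 were lower. Nfkb1 did not pass 1.5-fold against other fibroblasts with Has2 or in cells of 10000 or more UMIs. No gene of class I presentation (15 measured), glucocorticoid response (15) or the mitochondrial genome (11) passed 1.5-fold in both libraries in either direction.

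Markers of other cell types were checked. Of 9 mesothelial markers listed, 8 were in the data and Msln was not. Of the 8, 7 had no UMI in the adult cells (Upk3b, Lrrn4, Krt8, Krt18, Upk1b, Muc16 and Gpm6a) and 5 none in the aged. The summed level was 45.4 and 45.9 CPM against 51.9 and 32.4 in other fibroblasts, in the adult cells all from Krt19. Of the 8 markers, 5 stood below other fibroblasts in the adult and 3 in the aged library. Of the blood endothelial list, the sum was 17.9 and 39.0 CPM against 58.8 and 33.1. Lymphatic endothelial markers summed to 299 and 193 CPM, of which Pdpn, which fibroblasts also express, made up 284 and 186. Ptprc, Lyz2 and Tyrobp were at 0 in both libraries, although Cd3e, a T-cell gene, stood at 161 against 62.3 and 132 against 82.7 CPM. Smooth muscle markers differed by library: they summed to 255 CPM in adult and 5.82 in aged triple-positive cells, against 81.4 and 49.7 in other fibroblasts, and 1 adult cell held 51.7% of the Myh11 UMIs. The lymph node reticular list summed to 1921 and 2436 CPM against 1211 and 1279 in other fibroblasts. Of its 6 genes 5 stood below other fibroblasts in each library. Cxcl13 was 1.5-fold or more higher in both libraries, and Ccl19 and Enpp2 were lower. Of the fibroblast markers outside the rule, Col1a1, Col1a2, Col3a1 and Lum were lower. A UMI of Ptprc, Pecam1, Cdh5 or Myh11 was found in 15 adult (16.1%) and 14 aged cells (7.69%), against 18.9% and 10.1% of other fibroblasts. No doublet caller was run.

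The cells were then compared with the fibroblasts marked by Ctla2a, Krtdap and Bmp3 (3 or more of the 5 limit genes, 926 adult and 176 aged cells), from which the rule separates them. Among the 9655 genes measured here, 48 (0.497%) passed 2-fold on the high side in both libraries and 104 (1.08%) on the low side. Trpc5 (127 against 14.4 and 117 against 10.0 CPM), Wt1os (54.4 against 4.20 and 70.6 against 10.4) and Adgrv1 were again among the 10 highest. Aoc3 stood at 71.7 against 7.12 and 75.0 against 8.31 CPM, and Astn2, an astrotactin, at 56.8 against 9.06 and 64.4 against 11.4. Hp, Rnd1, Adamts4, Tc2n and Lrrc4c completed the list, of which Rnd1 (0.83) and Tc2n (0.85) were under 2-fold outside the clusters of 1 library. The lowest were Myoc, Emx2, Pax3, Emx2os, Il34, Tbx15, ENSMUSG00000121404, Dhrs9, Nkain2 and Wnt2. Pax3, a transcription factor of the neural crest and of muscle precursors, stood at 1.19 against 32.1 and 1.37 against 22.5 CPM, and Il34, a ligand of the CSF1 receptor, at 2.99 against 25.5 and 2.74 against 21.5. Emx2 was at least 12.5-fold lower in the adult and 12.8-fold lower in the aged library.

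All fibroblasts were clustered with the 10 genes of the rule, Wt1os, Trpc5, immediate early, mitochondrial, ribosomal, Y-linked genes and Xist left out. Of 20 clusters, cluster 4 took 59.1% of the adult triple-positive cells and 15.9% of adult fibroblasts, and cluster 1 took 62.1% of the aged ones and 19.6% of aged fibroblasts. Cluster 12 took a further 18.1% of the aged ones. The leading genes were Clic5 and C130026I21Rik for cluster 4, Gm56730 and Sema3a for cluster 1, and Alkal2 and Mcoln2 for cluster 12. These clusters came mostly from 1 library, 91.4% adult for cluster 4 and 96.3% and 90.6% aged for clusters 1 and 12, so cluster and library cannot be told apart.

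The cells did not form a cluster of their own, since they made up 10.4% of cluster 1 and 5.75% of cluster 4. Among the 15 nearest neighbours of a triple-positive cell, 15.3% were triple-positive, against 2.44% of all fibroblasts, and for cells with 2 of the 3 genes the share was 8.93%. Among the same 15 neighbours of adult triple-positive cells, 12.5% of those from the other library were triple-positive, against 3.22% of aged fibroblasts. For aged cells the share was 15.2%, against 1.66% of adult fibroblasts. How many neighbours came from the other library is not given here.

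**Figure D4:**
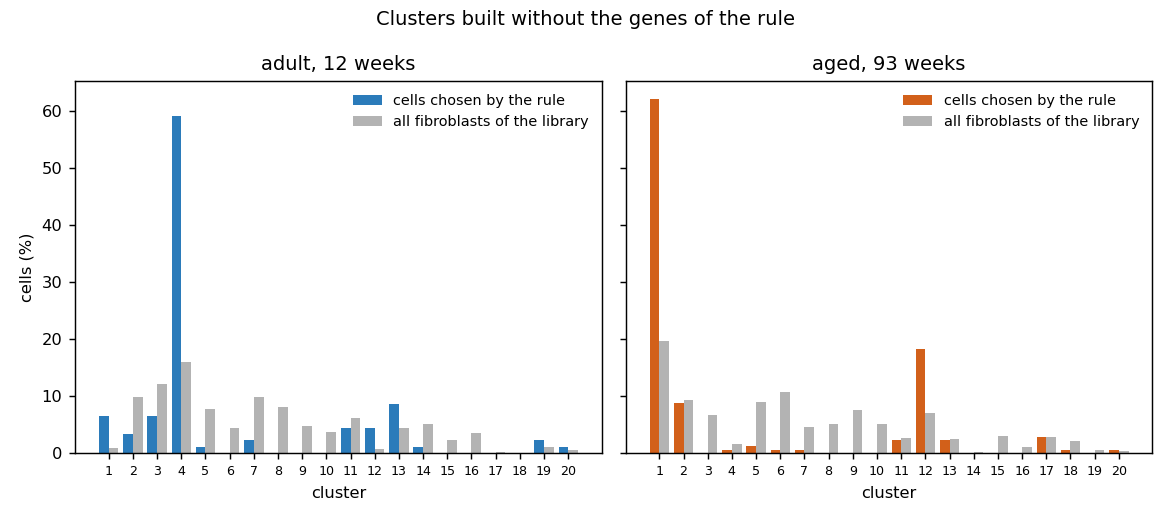
Share (%, y axis) of triple-positive cells (coloured) and of all fibroblasts of the same library (grey) in each of 20 clusters (x axis) built without the genes of the rule, for the adult (left) and aged (right) library. Adult triple-positive cells collect in cluster 4 (59.1%) and aged ones in clusters 1 and 12 (62.1% and 18.1%).

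Between the ages, 7690 genes were measured in triple-positive cells. Past 2-fold, 110 (1.43%) stood higher in the aged cells and 143 (1.86%) stood lower. At 1.5-fold, 469 (6.1%) were higher and 514 (6.68%) lower. Part of this was common to fibroblasts: 32 of the 110 and 32 of the 143 were also past 2-fold in other fibroblasts, where 43 and 74 of 8794 genes passed, and 10 and 8 had the opposite sign there. The groups differ in size and so in counting error, so these counts do not show a larger difference in triple-positive cells. Sex mix and cluster mix also differed between the libraries, and cannot be told apart from age.

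Among the highest ratios were those of Itm2a, Nrxn3, B830012L14Rik, Rian, Adamts9, Sphkap, Gm12840, Gap43, Meg3, Mgp and Peg3. Itm2a, a membrane protein, stood at 14.9 CPM in adult and 207 in aged cells, a log2 ratio of 3.70 (3.21 to 4.43) against 1.80 in other fibroblasts. The Ctla2a-marked cells among these were close to the triple-positive cells, at 20.6 and 194 CPM. Meg3 and Rian, noncoding RNAs of one imprinted cluster, stood at 84.2 and 412, and at 32.9 and 219 CPM, and were higher in aged other fibroblasts as well (1.51 and 2.23). Among cells with none of the 5 limit genes, 11 of them adult, Rian was at -0.18. Mgp, an inhibitor of calcification, stood at 66.3 and 309 CPM (2.20, 1.94 to 2.52), whereas other fibroblasts were at 956 and 976 CPM (0.03). The share of cells with a UMI of Mgp was higher in the aged library in both groups. It was 30.1% and 67.6% in triple-positive cells and 52.4% and 72.8% in other fibroblasts. Ctla2a-marked cells held it in 22.4% and 46.0%, at 209 and 126 CPM, and endothelial cells stood at 5056 and 7363 CPM. The Mgp ratio was 1.04 in cells with 2 or more of the 3 genes and 0.79 in those with none of the 5 limit genes. Adamts9, a protease of versican and aggrecan, stood at 29.9 and 188 CPM (2.62 against 0.78 in other fibroblasts). Outside the clusters that were 90% or more of 1 library, with 27 adult and 29 aged cells left, Mgp stood at 2.03 and Itm2a at 2.76, but Adamts9 at 0.29.

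The lowest ratios were those of Hpse2, H2-Ab1, C130026I21Rik, Des, Crispld2, Nlrc5, Igtp, Trim69, Socs1, ENSMUSG00000095041, Iigp1 and Csmd1. Hpse2, an inactive relative of heparanase, stood at 75.3 CPM in adult and 1.71 in aged cells (-4.81 against -2.56 in other fibroblasts), with 38.9% of the adult UMIs in 1 cell. It was at -2.38 outside the clusters of 1 library, -2.86 with the shared cells counted in both libraries and -1.70 with none of the 5 limit genes, so the gap to other fibroblasts depended on these choices. H2-Ab1, a class II chain, stood at 44.8 and 3.08 CPM, Nlrc5, the class I transactivator, at 23.9 and 3.43, and Iigp1, an interferon-induced GTPase, at 339 and 81.5. Each of these was also lower in aged other fibroblasts (-2.99, -2.55 and -1.73). Socs1, a brake on cytokine signalling, stood at 164 and 37.7 CPM (-2.09 against -0.86). Des, a smooth muscle gene, stood at 31.1 and 2.74 CPM and moved with the smooth muscle list given above, whose part in it was not tested. Crispld2 stood at 63.3 and 7.88 CPM, but its ratio of -2.86 was -0.45 without cells that held a UMI of another cell type.

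**Figure D5:**
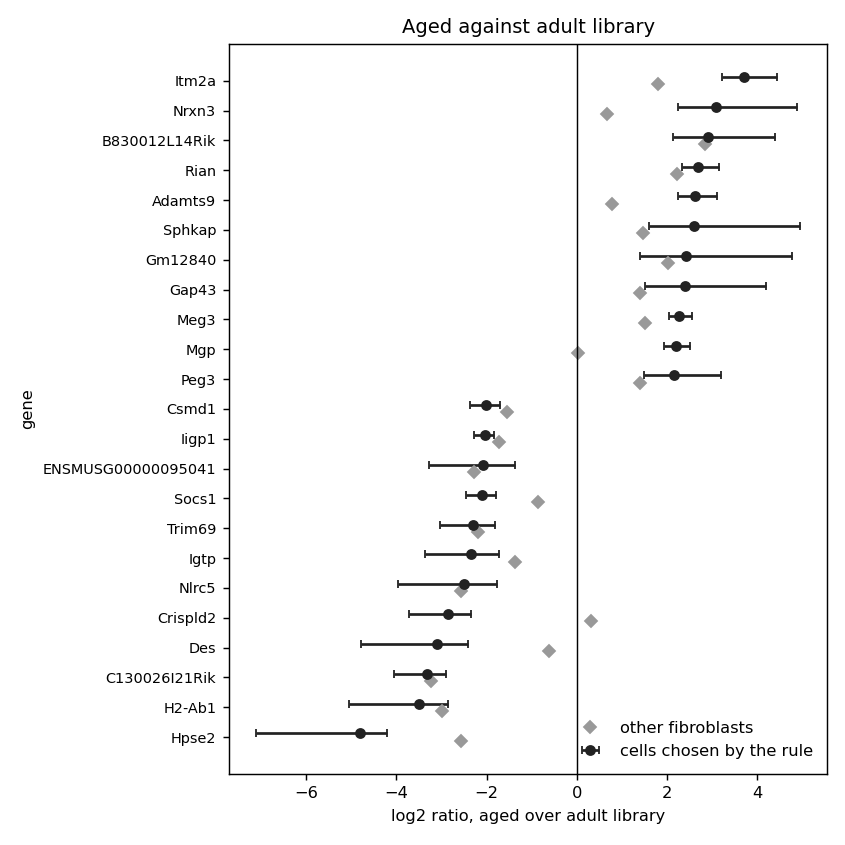
Log2 ratio of aged over adult CPM (1 CPM added, x axis) for 11 of the 12 highest and the 12 lowest genes (y axis) in triple-positive cells (black, with 95% counting intervals of the ratio without the added CPM) and in other fibroblasts (grey diamonds, no interval drawn). Itm2a, Meg3, Iigp1 and H2-Ab1 lie on the same side in both groups, whereas Mgp is at 2.20 against 0.03 and Crispld2 at -2.86 against 0.31.

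The lists are read against the 6.1% higher and 6.68% lower at 1.5-fold with age. By list, 8 of 15 class I presentation genes passed 1.5-fold on the low side with age and none on the high side, with B2m at 1417 and 600.1 CPM and a list median of -0.70 against -0.72 in other fibroblasts. Of 20 interferon response genes 14 were lower (median -0.89 against -0.72), among them Gbp7 and Iigp1. Of 16 collagens 10 were higher and 1 was lower, with Col3a1 at 996 and 2319.8 CPM (median 0.76 against 0.58). In these 3 lists the triple-positive cells followed the other fibroblasts in direction. Of 25 immediate early genes 6 were lower, with Fos at 1884 and 862 CPM, and of 14 glucocorticoid targets 3 were higher (Fkbp5, Tsc22d3 and Zbtb16), although Fkbp5 was at -0.62 in female and 1.52 in male cells. Of the rule's own genes, Wt1, Has2 and Rtl4 differed by 0.01, -0.13 and -0.16 between the ages, as a description of cells chosen for them.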

How the data were processed

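The deposited values are natural logs of per-cell UMIs scaled to 10000 with 1 added, made by the authors with Seurat 5.0.3 per the submitters' processing notes, which name GRCm39 and mm10 without a role. Of the aligner, the counting and the filters, the sources used here say nothing. UMIs were recovered: 100% of values came out whole within 0.01. The adult table held 90875406 UMIs and the aged one 128940414. Aged rows were named by adult row order (correlation over genes of shared cells 0.990, and 0.167 with rows shifted by 1). UMIs were summed per group and library (Python 3.11.15, scipy 1.17.1). Genes were named by rank: 24 highest and 12 lowest by the smaller ratio of the 2 libraries, 10 and 10 against Ctla2a cells, and 12 and 12 between ages with the same sign in both sexes. The rule's 10 genes, Xist, Y-linked and Dcpp genes were left out. Clusters used 2000 genes, 30 components and a resolution of 1 (igraph 0.11.9). No doublet caller was run; an alternative left out cells with a UMI of Ptprc, Pecam1, Cdh5 or Myh11, a filter narrowed after the data were seen. Some genes are not reported here. The ratio code was tested on simulated counts. The members and lists were chosen with earlier results of these data known. In all, 14 planned and 3 added alternatives were run. A UMI floor of 3 counts per library stands in for 0.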

Additional observations from a re-analysis of the deposited data

Results flagged for a closer look

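Among 122 genes looked at (those named with age and list genes past 1.5-fold with age), in 8 the aged over adult log2 ratio had opposite signs in triple-positive cells and other fibroblasts, with both counting intervals away from 0. The difference was not tested, as each age is 1 library. Bmper, a BMP-binding protein, stood at 1.10 against -0.38. Hgf, hepatocyte growth factor, stood at 0.82 against -0.82, and Efnb2, a guidance ligand, at 0.97 against -0.18. Cd55, a complement brake, stood at 0.70 against -0.03, and Cdkn1b, a cell-cycle inhibitor, at 0.72 against -0.14. C7, a complement component, stood at 0.77 against -0.33, but at 0.26 in male cells (-0.30 to 0.86), and in female cells it had 7 adult and 0 aged UMIs. Enpp2, the enzyme autotaxin, stood at -1.55 against 0.07, and Crispld2 at -2.86 against 0.31, with 47.2% of its adult UMIs in 1 cell. Without cells that held a UMI of another cell type, Crispld2 was at -0.45. Cd55 rested on 531 adult and 1510 aged UMIs, but Efnb2 on 17 and 61 and Hgf on 22 and 70. Within each sex the intervals in triple-positive cells held 0 for Hgf (female -1.15 to 2.50, male -0.27 to 1.62). They also held 0 for Efnb2 (-0.18 to 5.28 and -0.04 to 2.06). For Cd55 and Enpp2 they left out 0 in both sexes, and for Bmper, Cdkn1b and Crispld2 in male cells only.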

How the results depend on the processing

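Of 110 recomputed shares and counts, 66 stayed within the limits set for them (the share's interval, or 1.5 times a count). The number of genes measured also changed with the setting, so the counts below cannot be read as shares. Against other fibroblasts it was 23210 with no filter on low genes, in place of 9488. The shares were 2.30% aged with shared cells counted in both libraries; 7.86% adult and 15.6% aged with 2 of the 3 genes required; 0.196% and 1.33% with none of the 5 limit genes allowed; 2.11% and 4.12% in cells of 10000 or more UMIs; 0.796% and 1.45% in female, 2.84% and 4.66% in male cells; 1.24% and 2.71% after thinning. Counts against other fibroblasts (higher, lower) were 14 and 65 with 10 CPM added, 15 and 84 with 2 of the 3 genes, 93 and 324 in female cells and 17 and 71 against cells with Has2; lower genes were 352 with no filter on low genes, and higher genes 78 outside clusters of 1 library. Against Ctla2a cells they were 15 and 41 with 10 CPM added, 81 and 184 with no filter, 74 and 270 with none of the 5 genes, and 88 and 208 outside clusters of 1 library; higher genes were 26 with 200 or more UMIs, and lower genes 65 with 2 of the 3 genes and 265 in female cells. Between ages they were 49 and 54 with 10 CPM added, 794 and 1192 with no filter and 32 and 34 with 200 or more UMIs; higher genes were 311 with none of the 5 genes and 52 outside clusters of 1 library, and lower genes 91 with shared cells kept and 89 in female cells. Among 79 named values, signs turned for Or5m3b (-0.36), Gm55330 (-0.0894), B830012L14Rik (-0.0176), Rian (-0.18) and ENSMUSG00000095041 (0.0359) with none of the 5 genes, which leaves 11 adult cells, and the cause was not tested; for Hp in female cells the values (-0.46 and -0.10) are set by the added CPM, as these cells held 0 UMIs of it. No paired analysis was possible because each age is 1 pooled library, and no replicate could be left out.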

Other observations

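For Tesc, adult cells with a pair of the genes lay between cells with none and cells with all 3. Tesc was found in 2.13% of adult cells with none of the genes, 7.69% with Has2 and Rtl4, 12.8% with Wt1 and Has2 and 31.2% with all 3. In the aged library the shares were 2.82%, 23.8%, 14.2% and 25.8%, so the order of the pairs was not kept. Aged cells with Wt1 and Rtl4 but no Has2 held Tesc in 26.2%, slightly above those with all 3. Nptx2 was more frequent with Wt1 and Has2: 24.1% of adult and 27.7% of aged cells with these but no Rtl4 held it, against 10.8% and 21.3% with Has2 and Rtl4 but no Wt1. The copies of the 93 adult cells in the aged table, at a lower depth, had log2 ratios over the other copies of 3.90 for Trpc5, 3.76 for Wt1os and 2.27 for Adgrv1; they are the same cells and no second sample.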
